A study of Homo sapiens with 6 samples.

Results

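The RNAs described here are those of 8 tyrosine kinases that bind or phosphorylate Sam68, or that control the kinases that do: SRC, YES1, FYN, LYN, LCK, FRK, PTK6 and CSK. They were chosen by symbol from the 74852 loci of the deposited table, by a rule that did not use their values but with earlier results of these data known. All 8 were found and all 8 were among the 18849 loci tested. RNA was sequenced from MDA-MB-231, an established triple-negative breast cancer cell line, transfected with non-targeting siRNAs in 3 libraries (si-CTRL) and with 4 pooled siRNAs to SAM68 in the other 3 (si-SAM68). Per the labels, both groups received 2 transfections with Lipofectamine and were collected 24 h after the second. The paper's methods give another interval, without naming the transfection from which it was counted. Both groups thus share the cell line, the lipid reagent and exposure to siRNAs, and the silencing was transient and rests on 1 pool. The labels number 3 samples in each group without saying that they came from separate cultures, so that the p-values measure the spread between these samples. RNA was the only quantity measured, and no value here speaks of kinase protein, its activity or the phosphorylation of Sam68.

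Src-family kinases are non-receptor tyrosine kinases held at the inner face of membranes by a lipid anchor. Each has an SH3 domain, which binds proline-rich stretches, an SH2 domain, which binds phosphorylated tyrosines, and a kinase domain. CSK phosphorylates a tyrosine in their carboxy-terminal tail, and the tail then folds onto the SH2 domain and closes the kinase. Sam68, encoded by KHDRBS1, is an RNA-binding protein of the STAR family that was first known as a Src target in mitosis. Its proline-rich stretches dock on SH3 domains and its phosphorylated tyrosines on SH2 domains, and tyrosine phosphorylation lowers its binding to RNA. PTK6, also called Brk, lacks the lipid anchor and phosphorylates Sam68 in the nucleus.

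The 4 siRNAs of the SAM68 pool are shown because their seeds also define which other RNAs the pool could pair with. The sense strand is given, 5′ to 3′, and capitals mark its bases 12 to 18, which pair with the seed of the guide strand (guide positions 2 to 8, the guide being taken as the reverse complement of the listed strand).
siSAM68_1: gcacccauaugGACGUUAu
siSAM68_2: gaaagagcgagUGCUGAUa
siSAM68_3: uaugauggaugAUAUCUGu
siSAM68_4: aaagaucucugUAUUGGGa
All 4 matched the coding sequence of KHDRBS1 on the plus strand of chromosome 1 (GRCh38), siSAM68_1 at chr1:32042603-32042621, siSAM68_2 at chr1:32030383-32030401, siSAM68_3 at chr1:32036912-32036930 and siSAM68_4 at chr1:32031595-32031613. The 7 bases in capitals, read as DNA, occurred on the transcript strand of the longest annotated 3′ UTR in 1.27%, 12.1%, 11.5% and 7.93% of 19133 protein-coding genes, in the order shown, and 26.0% of these genes held at least 1 of the 4. The 3′ UTRs of FYN (1407 bases) and PTK6 (1940 bases) held none of the 4, nor any of the 4 matches of the control pool, which 49.8% of genes held. SRC, YES1, LYN, LCK and CSK held none of the SAM68 pool either, and FRK, with a 3′ UTR of 11265 bases, held 5. Of the control pool, FRK held 16 matches, SRC, YES1 and CSK 2 each, LYN 1 and LCK none. An absent match says only that these letters were not in this stretch.

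The silenced gene was checked first. KHDRBS1 (GSHG0000334, chromosome 1, hg19 32479295 to 32526460) had normalised read counts of 15660.4, 14483 and 14737 in the si-CTRL libraries and of 583, 602 and 670.2 in the si-SAM68 libraries. These values are reads per locus divided by the size factor of the library. The si-SAM68 mean of 618 ± 45.8 (SD, n = 3) was 4.13% of the si-CTRL mean of 14960.0 ± 619.7 (SD, n = 3). Libraries held between 52625492 and 82568487 reads on all loci together. Loci of ribosomal RNA took 15.1% of the reads of si-SAM68 replicate 2 and 1.83% to 3.17% of the other 5 libraries, and values without that library are given below where they change a call. As markers of the line, VIM and CD44 together reached 195878 to 241559 in si-CTRL and 198429 to 206011 in si-SAM68. The luminal and epithelial markers ESR1, PGR, CDH1 and EPCAM summed to 8.72 to 18.1 and to 19.1 to 23.0, with PGR at 0. The 8 blood cell markers summed to 155 to 224 and to 159 to 198, and 6 of the 8 never exceeded 20, CD2 and MS4A1 being at 0. CSF1R and ITGAM made up most of these sums, with means of 99.5 and 80.4 in si-CTRL and of 65.5 and 103.0 in si-SAM68. CSF1R was lower in every si-SAM68 library than in any si-CTRL library (limma, adjusted p = 0.0791), and the groups of ITGAM overlapped.

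Of the 8 kinases, FYN fell and PTK6 rose after silencing of SAM68, and the RNAs of SRC, YES1, LYN, LCK, FRK and CSK passed no threshold. FYN went to 72.7% of its si-CTRL level and PTK6 to 1.48 times its level. At an adjusted p under 0.05 (limma, Benjamini-Hochberg over the 18849 loci) 2 of the 8 were called, or 25.0%, 1 in each direction, where 10.7% of all loci tested were called (4.47% higher, 6.23% lower in si-SAM68). With the replicate number added to the fit as a block, 1 of the 8 was called, FYN, against 9.0% of all loci. None of the 8 met the thresholds that the study's methods state, an unadjusted p of at most 0.05 with a fold change of at least 1.5, which 7.67% of all loci met (2.83% higher, 4.83% lower). That count was 0 in edgeR and in DESeq2 too, where 7.95% and 7.08% of all loci met them, and 2 of the 8 had an unadjusted p under 0.05 in limma, against 27.0% of all loci. The median log2 fold change of the 8 was 0.11, beside 0.0050 over all loci. Of the 8 values 7 were above 0, as were those of 9591 of the 18849 loci. Among these 7 kinases, LYN (0.0058) and CSK (0.0074) lay near 0, and LCK and FRK had only 6 to 29 reads in a library. In 2 of the 8 the groups did not overlap, which held for 33.9% of all loci (16.6% with every si-SAM68 library higher, 17.3% with every one lower). The plot of normalised read counts by library shows FYN and PTK6 as the kinases whose groups are apart.

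**Figure D1:**
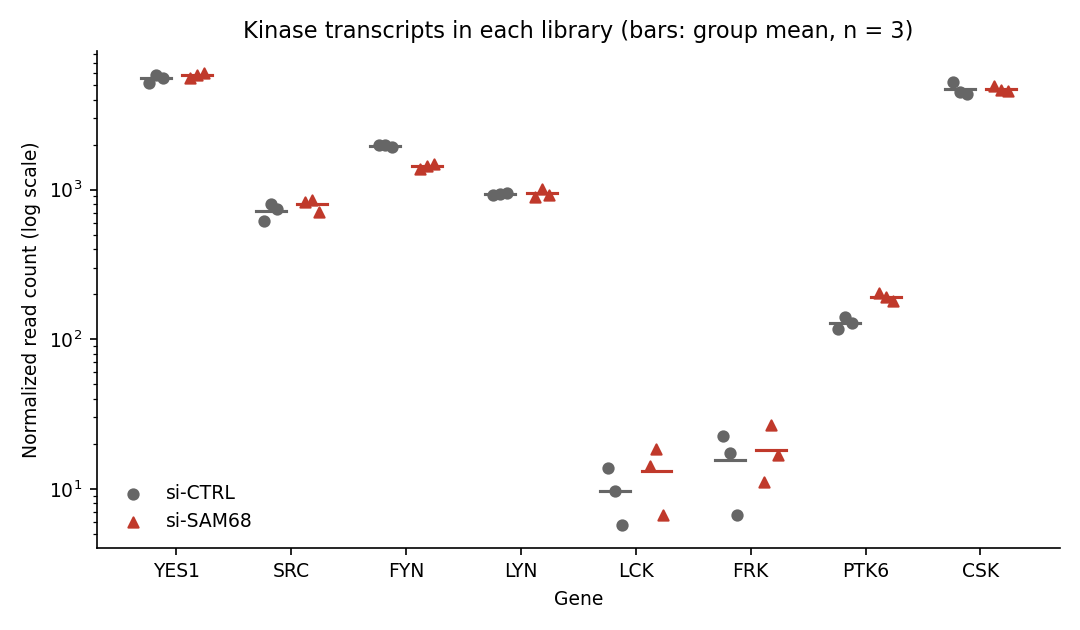
Normalised read count (vertical axis, log scale) of each of the 8 kinases in the 3 si-CTRL and the 3 si-SAM68 libraries, with points for libraries and horizontal lines for group means. The si-SAM68 points of FYN (1374 to 1482) lie below all its si-CTRL points (1926 to 1986), those of PTK6 (179.8 to 203) lie above its si-CTRL points (117 to 140.4), and the groups of the other 6 kinases overlap.

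Src, Yes and Fyn are the widely expressed members of the family. SRC (GSHG0033956, chromosome 20, hg19 35973088 to 36033835) encodes the kinase that gave the family its name. It had normalised read counts of 621, 801 and 739 in si-CTRL and of 832, 851 and 704 in si-SAM68. The groups overlapped, with means of 720.3 ± 91.3 and 796 ± 80.1 (SD, n = 3 each). The log2 fold change of 0.15 (SE 0.12) had a 95% interval of −0.13 to 0.42, which allows a fold between 0.916 and 1.34 (limma, adjusted p = 0.481).

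YES1 (GSHG0014155, chromosome 18, hg19 721592 to 812547), the closest relative of SRC, had 5149, 5863 and 5605 in si-CTRL and 5536, 5862 and 5985 in si-SAM68. Its groups overlapped as well, at 5539 ± 361 and 5794 ± 232 (SD, n = 3 each). The fold lay within 0.927 to 1.18 at 95% confidence (log2 fold change 0.07, limma, adjusted p = 0.630), so that a change of SRC or YES1 by a factor of 1.5 was outside both intervals.

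FYN (GSHG0026844, chromosome 6, hg19 111981535 to 112194655) encodes the kinase known to phosphorylate Sam68 and thereby to alter the splicing it directs. Its normalised read counts were 1979.7, 1986 and 1926 in si-CTRL and 1374, 1427 and 1482 in si-SAM68. Every si-SAM68 library was below every si-CTRL library, and the gap between the groups was far wider than the spread within either. The means were 1964 ± 32.8 and 1428 ± 54.1 (SD, n = 3 each), a log2 fold change of −0.46 (SE 0.078, 95% interval −0.63 to −0.29) with an adjusted p of 0.00691 (limma). The 436th smallest p of the 18849 was that of FYN. In an exact permutation test of the 6 values alone, two-sided, p was 0.1, the smallest that 3 against 3 can give. The fall was past the threshold in all 17 alternatives to the fit, with adjusted p between 2.6e-05 and 0.0399, the latter without si-SAM68 replicate 2, the library rich in ribosomal RNA. Loci overlapping FYN that could share its reads had a mean of at most 8.22.

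LYN and LCK are best known from blood cells, LYN in B cells and myeloid cells, where it also has inhibitory roles, and LCK in T cells, where it starts signalling from the antigen receptor. LYN (GSHG0029018, chromosome 8, hg19 56792372 to 56925006) had 921, 939 and 953 in si-CTRL and 896, 1007 and 925 in si-SAM68. Its groups overlapped, at 938 ± 15.8 and 943 ± 57.9 (SD, n = 3 each). The log2 fold change of 0.0058 had a fold interval of 0.876 to 1.15 (limma, adjusted p = 0.977), the estimate nearest to no change among the 8.

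LCK (GSHG0000345, chromosome 1, hg19 32716840 to 32751768) lay near the floor of the measurement, with 11, 10 and 6 reads in si-CTRL and 14, 20 and 6 in si-SAM68. As normalised read counts these were 13.7, 9.69 and 5.70 against 14.1, 18.4 and 6.70, and the groups overlapped. The log2 fold change of 0.36 had an interval of −0.74 to 1.47 (limma, adjusted p = 0.678). It allows a fold between 0.601 and 2.76, and a difference of LCK within that range was not detectable at this depth. Beside it, PTPRC, the phosphatase of all white blood cells, reached at most 13.6 in any library.

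FRK and PTK6 form a related branch of kinases found mainly in epithelia. FRK (GSHG0026860, chromosome 6, hg19 116262693 to 116382001) was as sparse as LCK, with 18, 18 and 7 reads in si-CTRL and 11, 29 and 15 in si-SAM68. Normalised, these were 22.5, 17.4 and 6.65 against 11.1, 26.7 and 16.8, and each group spanned most of the other. The log2 fold change of 0.28 had an interval of −0.82 to 1.38 (limma, adjusted p = 0.758), again wide, which allows a fold between 0.566 and 2.61. The pseudogene TPI1P3, inside FRK, had a mean of 5.95, and counting by strand was not stated.

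PTK6 (GSHG0019330, chromosome 20, hg19 62159778 to 62168723) had 117, 140.4 and 128 in si-CTRL and 203, 190.4 and 179.8 in si-SAM68. All si-SAM68 libraries were above all si-CTRL libraries, on 94, 145 and 135 reads against 202, 207 and 161. The means were 129 ± 11.5 and 191 ± 11.8 (SD, n = 3 each). The log2 fold change of 0.57 (SE 0.14) had an interval of 0.26 to 0.88, or a fold of 1.20 to 1.84 (limma, adjusted p = 0.0309), and the exact permutation p was 0.1, the smallest possible. The call was closer to the threshold than that of FYN. It was lost with the replicate number as a block (adjusted p = 0.0560), without the filter on low values (0.0578), and when si-CTRL replicate 3 was left out (0.0781) or when replicate 1 (0.0993), 2 (0.102) or 3 (0.0889) of si-SAM68 was, while the log2 fold change stayed within 0.51 to 0.63 when any library was left out. On recovered reads the adjusted p was 0.0341 in edgeR and 0.0186 in DESeq2.

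**Figure D2:**
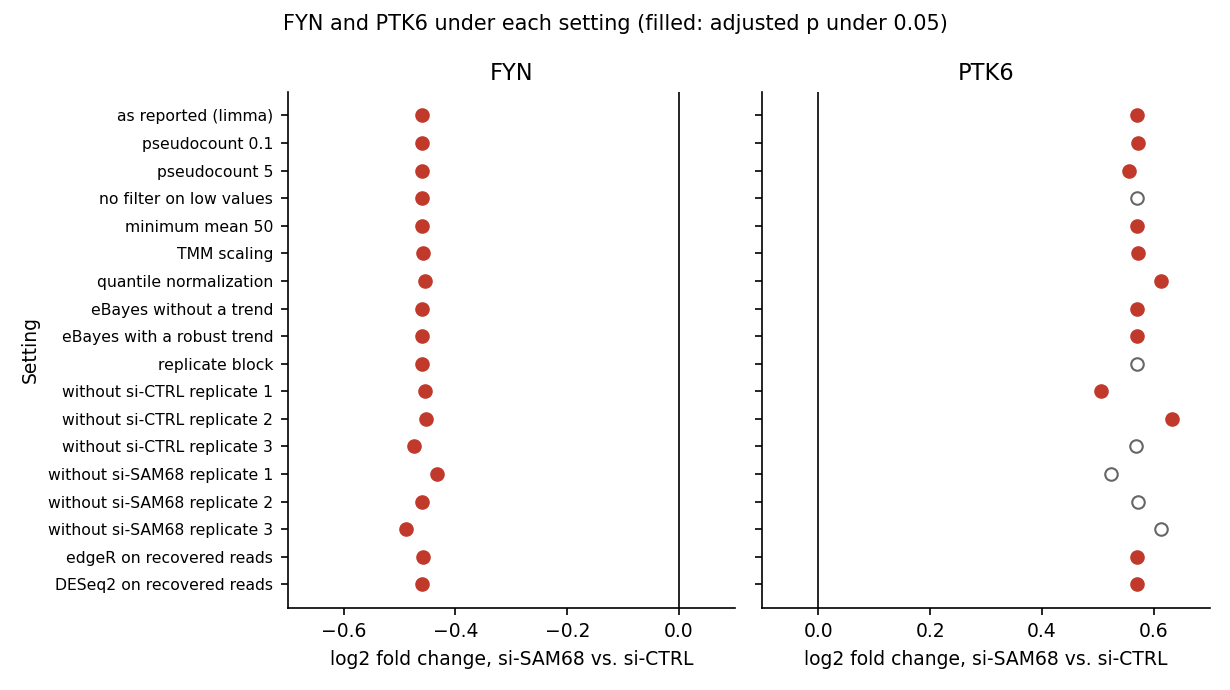
Log2 fold change of FYN and of PTK6, si-SAM68 against si-CTRL (horizontal axis), as reported and in each of the 17 alternatives (vertical axis), with filled points for an adjusted p under 0.05. The points of FYN are all filled, whereas those of PTK6 are open in 6 alternatives, 4 of which leave out a library.

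CSK (GSHG0010013, chromosome 15, hg19 75074425 to 75095539), the kinase that closes those of the Src family, had 5203, 4494 and 4379 in si-CTRL and 4908, 4614 and 4591 in si-SAM68. The groups overlapped, with means of 4692 ± 446 and 4704 ± 177 (SD, n = 3 each). The log2 fold change of 0.0074 had a fold interval of 0.880 to 1.15 (limma, adjusted p = 0.969).

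**Figure D3:**
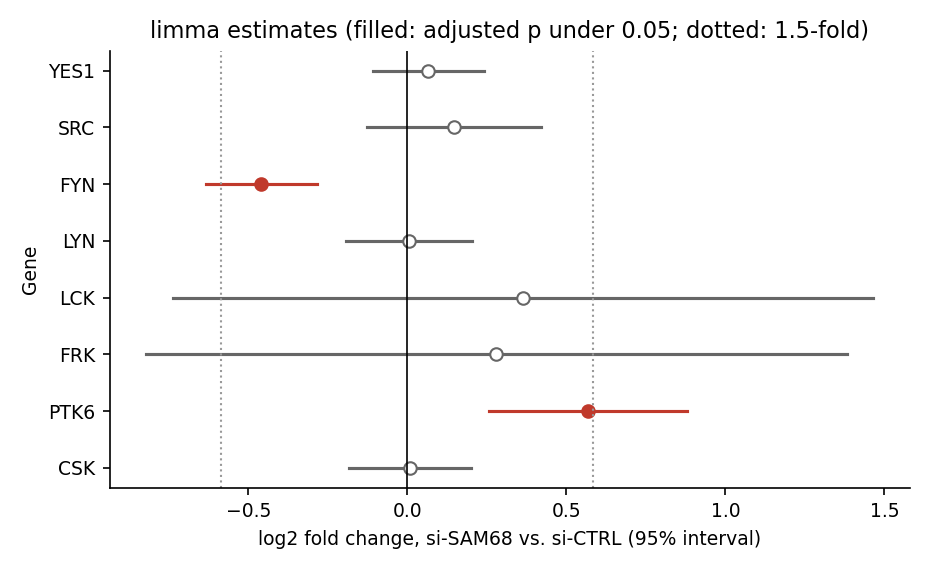
Log2 fold change, si-SAM68 against si-CTRL, of the 8 kinases on the horizontal axis, with 95% intervals from limma, filled points for an adjusted p under 0.05 and dotted lines at a fold of 1.5. The interval of FYN (−0.63 to −0.29) lies below 0 and that of PTK6 (0.26 to 0.88) above it, those of SRC, YES1, LYN and CSK are narrow and include 0, and those of LCK and FRK span more than 1 log2 unit on either side of their estimates.

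To set the kinases side by side, levels were divided by the length of exons (union of annotated exons, 2947 to 13230 bases). In si-CTRL, normalised read counts per kilobase were 1086 ± 70.8 for YES1 and 1027 ± 97.7 for CSK, followed by FYN at 265 ± 4.43, LYN at 152 ± 2.55, SRC at 111 ± 14.1 and PTK6 at 43.7 ± 3.90 (SD, n = 3 each). LCK (2.91 ± 1.20) and FRK (1.17 ± 0.61) stood last. The order of the means was that of si-SAM68 too, where the levels per kilobase were 1136 ± 45.5 for YES1, 1029 ± 38.7 for CSK, 193 ± 7.30 for FYN, 152 ± 9.36 for LYN, 123 ± 12.4 for SRC, 64.9 ± 4.02 for PTK6, 3.91 ± 1.77 for LCK and 1.37 ± 0.60 for FRK. YES1 and CSK overlapped in si-CTRL, and LCK and FRK in si-SAM68. The other neighbours were apart in their group. The place of some neighbours depended on the length used. With the longest basic transcript, an alternative chosen after seeing the data, CSK (1696) stood above YES1 (1194) in si-CTRL, and LYN and SRC overlapped.

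The RNA of the Src family proper was then viewed as a mixture. Summed over SRC, YES1, FYN, LYN and LCK, the level per kilobase was 1617 ± 85.7 in si-CTRL and 1608 ± 51.7 in si-SAM68, with overlapping groups. YES1 made up 67.1 ± 0.85% of the sum in si-CTRL and 70.6 ± 1.03% in si-SAM68 (SD, n = 3 each). FYN made up 15.8% to 17.5% in the si-CTRL libraries and 11.7% to 12.2% in the si-SAM68 libraries, without overlap. The size of a share depended on the length used, and with the longest basic transcript FYN made up 25.5% to 27.9% and 19.4% to 20.3%, again without overlap. The share of LYN was 9.39 ± 0.41% and 9.47 ± 0.40%, that of SRC 6.87 ± 0.52% and 7.66 ± 0.88%, and LCK stayed at 0.18% and 0.24%. Shares add up to the whole, so that a lower share of FYN raises those of the others without any change in their level. The sum of the 5 stood at 1.59 ± 0.22 times the level of CSK in si-CTRL and at 1.56 ± 0.11 times in si-SAM68, and these ratios overlapped.

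**Figure D4:**
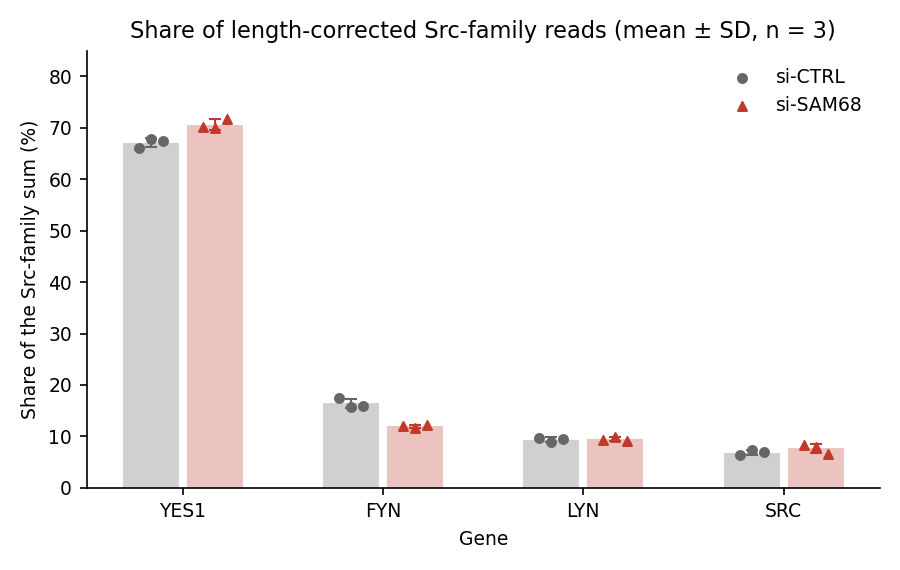
Share (percent, vertical axis) of YES1, FYN, LYN and SRC in the normalised read count per kilobase of exon summed over these 4 genes and LCK, with points for libraries and bars for the group mean ± SD (n = 3). YES1 holds the largest share in every library, and the points of FYN lie at 15.8% to 17.5% in si-CTRL and at 11.7% to 12.2% in si-SAM68.

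Ratios taken within a library do not depend on its size factor. The normalised read count of FYN was 0.356 ± 0.025 times that of YES1 in si-CTRL and 0.246 ± 0.003 times in si-SAM68. Against LYN the ratio went from 2.09 ± 0.066 to 1.52 ± 0.094, against SRC from 2.76 ± 0.38 to 1.81 ± 0.26, and against CSK from 0.421 ± 0.035 to 0.304 ± 0.022. PTK6 over CSK was 0.0277 ± 0.0046 in si-CTRL and 0.0406 ± 0.0013 in si-SAM68. In each of these 5 ratios the groups did not overlap (exact permutation test, two-sided, p = 0.1 for each, the smallest possible). The groups of FYN and PTK6, the numerators, were already apart before dividing, so that these p-values largely restate that difference. The 5 ratios also share numerators and are not independent of each other.

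Other loci followed the same pattern over the 6 libraries, which is a description since all share the libraries and the contrast. Among 12927 loci with a symbol and a mean of at least 50, the log2 values closest to FYN were those of TFPI (Pearson r = 0.998), RASSF4 (0.997) and IGSF10 (0.997), and 362 loci had r of at least 0.95. A correlation does not depend on the size of a change. The log2 fold changes of TFPI, RASSF4 and IGSF10 were −0.36, −0.30 and −2.12, and RASSF4 was not called (limma, adjusted p = 0.186). The log2 values closest to PTK6 were those of CTDSP2 (0.997), ZNRF2P1 (0.995) and the joined locus of AGAP11 and FAM25A (0.995), and 235 loci had r of at least 0.95. The log2 fold changes of these neighbours of PTK6 were 0.57, 0.31 and 0.45, and ZNRF2P1 was not called (limma, adjusted p = 0.104).

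The 55 genes that work beside these kinases were taken from lists of further family members, adaptors, phosphatases, ubiquitin ligases, substrates and partners of Sam68. These lists, too, were chosen with earlier results of these data known. Of the 55 genes, 48 were tested and 11 were called at an adjusted p under 0.05 (limma), 7 higher and 4 lower, or 22.9% against 10.7% of all loci. The genes of the lists were more abundant than most loci, with a median of 3029 against 610.1, and the share called among all loci with a mean of at least 50 was 14.4%. By the study's thresholds 5 of the 48 were called, 2 higher and 3 lower, against 7.67% of all loci (2.83% higher, 4.83% lower). The median log2 fold change was −0.09, and 23 of the 48 had groups that did not overlap, against the 33.9% of all loci. Tested loci that join several genes numbered 5.

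Of the 5 remaining kinases 3 were tested and 1 fell, where 6.23% of all loci were called lower. BLK, a B-lymphocyte kinase, had 79.99, 44.6 and 56.1 in si-CTRL and 23.2, 28.5 and 29.04 in si-SAM68, without overlap (log2 fold change −1.10, limma, adjusted p = 0.0303). Its call was lost with the replicate block (adjusted p = 0.0545) and in 5 of the 6 fits without a library, that is without si-CTRL replicate 1 or 3 or any si-SAM68 replicate, with adjusted p of up to 0.0965, as well as without the filter on low values (0.0589) and without a variance trend (0.0526). MATK, a relative of CSK, went from 17.8 ± 1.40 to 9.08 ± 5.20 on 4 to 19 reads a library. It met the study's thresholds (log2 fold change −1.03, limma, unadjusted p = 0.0450) but not the adjusted one (adjusted p = 0.175). MATK no longer met the study's thresholds in edgeR (unadjusted p = 0.0580). The same held in limma without si-CTRL replicate 1, 2 or 3 or si-SAM68 replicate 1 or 3, with unadjusted p of 0.0725 to 0.151.

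Among the 8 adaptors that recruit CSK or bind Src, 2 rose and none fell, where 4.47% of all loci were called higher and 6.23% lower. With 8 genes, a count of none is close to that share. CAV1, the coat protein of caveolae and a Src substrate, went from 60584 ± 1374 to 93098 ± 2180 (log2 fold change 0.62, SE 0.071, limma, adjusted p = 0.00101) and was called in all 17 alternatives. NEDD9, a docking protein of focal adhesions, went from 75.6 ± 29.1 to 187 ± 31.7 (log2 fold change 1.36, SE 0.27, adjusted p = 0.0129). Its call was lost without si-SAM68 replicate 1 or 3, with adjusted p of 0.0574 to 0.0650, and without a variance trend (0.0603).

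Of the phosphatases, which can open Src-family kinases by removing the tail phosphate or act on other sites, 8 of 10 were tested. Of these 8, 1 rose and 1 fell, where 4.47% of all loci were called higher and 6.23% lower. PTPRJ, a receptor-type phosphatase, rose from 2038 ± 109 to 2971 ± 236 (log2 fold change 0.54, limma, adjusted p = 0.00570) in every alternative. PTPRA, known to remove the tail phosphate of Src and Fyn and here counted on a joined locus with VPS16, fell from 4282 ± 323 to 3247 ± 91.5 (log2 fold change −0.40, adjusted p = 0.0155). That call was lost without si-CTRL replicate 3, si-SAM68 replicate 2 or si-SAM68 replicate 3, with adjusted p of 0.0568 to 0.0779, and without a variance trend (0.0630). The median of the 8 was −0.24, and 4 had all si-SAM68 libraries below all si-CTRL libraries, which held for 17.3% of all loci. Of the ubiquitin ligases that remove active Src 3 of 4 were tested. None was called in limma or in edgeR, each of which called 10.7% of all loci. With 3 genes, a count of none is close to that share. In limma 1 had an unadjusted p under 0.05, against 27.0% of all loci. In DESeq2 1 was called, against 14.8% of all loci. The values of CBL were 1408 ± 222 and 1428 ± 201 (adjusted p = 0.934), and those of CUL5 2661 ± 115 and 2536 ± 250 (adjusted p = 0.652).

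All 14 substrates and effectors were tested, and 3 rose and 1 fell, where 4.47% of all loci were called higher and 6.23% lower. CTNND1, p120-catenin, counted on a locus joined with TMX2, rose from 5436 ± 285 to 7960 ± 149 (log2 fold change 0.55, limma, adjusted p = 0.00207). The transcription factor STAT3 rose from 9292 ± 621 to 11493 ± 258 (0.31, adjusted p = 0.0301) and the receptor kinase substrate EPS8 from 8332 ± 425 to 10034 ± 41.9 (0.27, adjusted p = 0.0396). CRK, an adaptor that docks on phosphorylated BCAR1 and paxillin, fell from 1777 ± 95.9 to 1251 ± 21.99 (−0.50, adjusted p = 0.00570). CTNND1 and CRK were called in every alternative. STAT3 and EPS8 each lost the call without si-CTRL replicate 2 or 3 or any si-SAM68 replicate, with adjusted p of up to 0.132 and 0.154. Both calls were also lost without the filter on low values (0.0504 and 0.0657) and without a variance trend (0.0964 and 0.106), and that of EPS8 with the replicate block (0.0615). The median over the 14 was −0.06.

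Among SH2 and SH3 partners of Sam68, 7 of 8 were tested, 1 rose and 1 fell, beside the same shares of all loci (4.47% higher, 6.23% lower). NCK2, an adaptor to the actin machinery, fell from 286 ± 44.4 to 162 ± 10.1 (log2 fold change −0.81, limma, adjusted p = 0.00886, or 0.0516 without si-SAM68 replicate 3). RASA1, the Ras GTPase-activating protein, rose from 7834 ± 742 to 10016 ± 795 (0.36, adjusted p = 0.0375), a call lost without si-CTRL replicate 2 or 3 or any si-SAM68 replicate, with adjusted p of up to 0.157, and also with the replicate block (0.0701), without the filter (0.0584) and without a variance trend (0.118). None of the 4 serine/threonine kinases of Sam68 was called in limma, edgeR or DESeq2, which called 10.7%, 10.7% and 14.8% of all loci. With 4 genes, a count of none is close to these shares. In limma 2 had an unadjusted p under 0.05, against 27.0% of all loci. CDK1, the mitotic kinase, had 11838 ± 1358 and 14355 ± 970 (adjusted p = 0.0945). Of the Sam68 paralogs, KHDRBS3 had 193 ± 11.4 and 182 ± 27.6 (log2 fold change −0.10, adjusted p = 0.713), and KHDRBS2 had no read in any library, where a count of 0 allows up to 3 reads, or a normalised read count of at most 3.75.

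**Figure D5:**
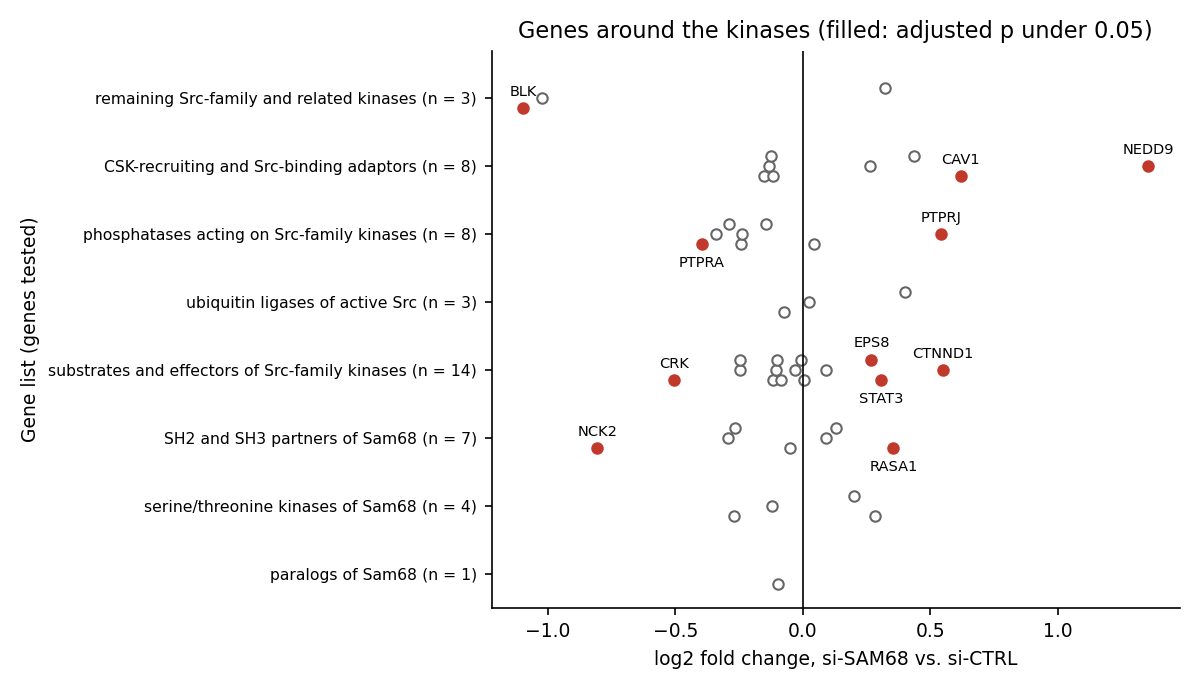
Log2 fold change, si-SAM68 against si-CTRL (horizontal axis), of the 48 tested genes of the lists, 1 row per list on the vertical axis, with filled and named points for an adjusted p under 0.05 in limma. Called genes lie on both sides of 0, from BLK at −1.10 to NEDD9 at 1.36, with 7 of the 11 called list genes above 0.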

How the data were processed

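Polyadenylated RNA of 6 MDA-MB-231 libraries had been sequenced. The submitters' processing notes name STAR 2.4.0, FastQC, Picard, SAMtools, DESeq2 and hg19, and the methods name the FAST DB annotation. The labels and the methods differ in medium and RNA kit, and in how they state the harvest time. Whether counting used strand was not given in the sources used here. The deposited values are a signal, the reads on a locus divided by the size factor of the library. Dividing by the step of 1 read gave whole reads for 100% of values (tolerance 0.01). Groups and replicate numbers come from the sample titles.

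Values were compared as log2(value + 1) with limma 3.58.1 (trended eBayes, R 4.3.3, group as the only term) over 18849 loci (minimum mean 10), adjusted by Benjamini-Hochberg over all of them. The scale slightly understates folds of rare RNAs. Alternatives were other pseudocounts, filters, scalings and variance models, the replicate block, each library left out, and edgeR 4.0.16 and DESeq2 1.42.0 on recovered reads. The script was tested on simulated data. Exon lengths, 3′ UTRs and siRNA positions come from GENCODE (GRCh38), and siRNA sequences from the study's list of oligonucleotides. Loci counted on hg19 and lengths on GRCh38 may differ.

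Libraries with the same replicate number deviated together (r = 0.105, 0.231 and 0.125 for numbers 1 to 3, against −0.125 to 0.00687 for other pairs). Deviations were taken from the group means, which ties the values of other pairs to those of same-number pairs. These correlations therefore cannot decide whether the numbers pair the libraries. The number was left out of the main fit and used as a block in an alternative, where PTK6 lost its call (limma, adjusted p = 0.0560).

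The kinases and lists were chosen with earlier results of these data known. Named are all 8 kinases, KHDRBS1, the genes of each list with an adjusted p under 0.05 (at most 4, then the most abundant up to 2), and the 3 loci most like each called kinase. Other genes are named for what they mark or as lists' genes at 0. Some genes that this rule names are not reported here.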

Additional observations from a re-analysis of the deposited data

How the results depend on the processing

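KHDRBS1 and FYN kept direction and call in all 17 alternatives. Of the 8 kinases, 1 was called in place of 2 without the filter on low values and 1 with the replicate block, since PTK6, at a log2 fold change of 0.57 in both, had adjusted p of 0.0578 and 0.0560. With a library left out 1 to 2 kinases were called and PTK6 ranged from 0.51 to 0.63. The study's thresholds took 1 kinase, PTK6, under quantile normalization, and 0 to 1 with a library left out (1 without si-CTRL replicate 2 or si-SAM68 replicate 3). Of the list genes 7 were called without the filter, 5 without a variance trend, 8 with the block, 16 in DESeq2 and 4 to 13 with a library left out. The share called over all loci moved as well, from 10.7% to 4.5% without the filter, 4.77% without a trend and 9.0% with the block. It was 14.8% in DESeq2 and 3.32% to 15.1% with a library left out. The block lost PTK6, BLK, EPS8 and RASA1 and changed no other call among the named genes. Some uncalled estimates changed sign when a library was left out, those of LYN, CSK, CUL5 and CBL from near 0 and that of FRK from 0.28. LYN ranged from −0.043 to 0.042 (−0.0070 in the other such fit), FRK from −0.20 to 0.61 (also −0.03), CSK from −0.040 to 0.084 (also −0.022 and −0.023), CUL5 from −0.14 to 0.0047, and CBL from −0.11 to 0.12 (also −0.08). The cause of these shifts was not tested. Over all loci, calls ranged from 625 without si-SAM68 replicate 3 to 2839 without si-CTRL replicate 1, beside 2017, with 899 without a trend. Depth limits LCK and FRK, which had 6 to 29 reads in a library, no adjusted p in DESeq2 and no value at a minimum mean of 50. No alternative scaling moved the median of all loci by more than 0.01.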
